A study of Saccharomyces cerevisiae with 12 samples.

Results

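The genes described here are 53 nuclear genes of Saccharomyces cerevisiae that carry the names MRPL, MRPS or MRP for mitochondrial ribosomal protein and encode subunits of the mitochondrial ribosome. They were taken by name from a list of gene IDs with no threshold on their values, although the set was proposed with earlier results of these data known, out of 5897 protein-coding genes in the deposited table. The large subunit takes 37 of them and the small subunit 16. By the uniform ribosomal protein names, 35 have a counterpart in bacterial ribosomes and 18 belong to mitochondria-specific families. All 53 were in the table, and all 53 passed the filter on low values.

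RNA was measured in 6 haploid strains of the BY4741 background, with 2 libraries per strain that the submitters call biological replicates. The deletion strains have the genotype MATa his3Δ1 leu2Δ0 met15Δ0 ura3Δ with ecm32Δ::kanMX4, slh1Δ::kanMX4, ski2Δ::kanMX4, dbp1Δ::kanMX4 or dhh1Δ::kanMX4 added, so that a kanMX4 cassette replaces 1 RNA helicase gene in each. The WT is MATa his3Δ1 leu2Δ0 met15Δ0 ura3Δ0, so all 6 strains carry mutations in the same 4 nutritional marker genes. All cultures grew in YPD, a rich glucose medium, at 30 °C to mid-log phase at an optical density of 0.5. Total RNA was depleted of ribosomal RNA and sequenced as strand-specific libraries. The series title asks about non-coding RNAs that Xrn1 degrades and whether these helicases affect them.

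The 12 libraries held 8792919 to 17657085 assigned reads. Added spike-in RNA took 1.22% of the reads in WT library 1 and 1.72% to 2.69% in the other 11. The targeted gene was near 0 in 3 of the 5 deletions, at 0.319% of the WT density for ECM32, 0.0283% for SLH1 and 2.17% for DHH1. The other two labels went against the data. In the libraries labelled ski2Δ, SKI2 stood at 146% of WT while DBP1 stood at 3.68%, with 6 reads against 226 in WT. In the libraries labelled dbp1Δ, DBP1 stood at 150% of WT while SKI2 stood at 0.110%, with 3 reads against 3036 in WT. Both strains are therefore called by their label alone, as the libraries labelled ski2Δ and the libraries labelled dbp1Δ.

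The mitochondrial ribosome translates the few messages of the mitochondrial genome, most of which encode membrane subunits of the respiratory chain and the ATP synthase. Its ribosomal RNAs and 1 protein, Var1, come from mitochondrial DNA, while the other proteins are encoded in the nucleus, made in the cytosol and imported. In yeast, messages for mitochondrial ribosomal proteins are the classic targets of Puf3, an RNA-binding protein that attaches to a UGUA element in the region after the stop codon and promotes deadenylation and decay of the message during growth on glucose. Dhh1 is a DEAD-box helicase that stimulates decapping and represses translation, and Ski2 is the helicase of the cytoplasmic exosome pathway. Slh1 is a helicase of ribosome quality control, and Dbp1 is a DEAD-box relative of the initiation helicase Ded1.

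The element after the stop codon is shown first because every member has it. The core motif TGTANATA, read on the sense strand only, occurred within 200 bases after the stop codon in 53 of 53 members, a share of 100%, against 843 of 5897 protein-coding genes, a share of 14.3%. The share within 100 bases was 90.6% of the members and 10.3% of all protein-coding genes. It was 4.35% within 200 bases among 138 genes taken as cytosolic ribosomal protein genes by symbol alone (RPL, RPS or RPP with a number). That rule can take in a gene of another function. A match is a description of letters in the RefSeq genome, build R64, and not evidence of binding. The sites of the 6 members with the highest fold changes in dhh1Δ are printed below, followed by those of MRP51, whose neighbour is DBP1, and of MRP7, the member with the fold change nearest to 1 in dhh1Δ. Each line gives 24 bases, 5′ to 3′ on the sense strand, and the capitals mark the core motif.
MRPL28, chrIV:1386540-1386563, plus strand: tctcctgcTGTAAATAactgatga
MRPL28, chrIV:1386596-1386619, plus strand: taattataTGTACATAgacatata
MRPS8, chrXIII:572764-572787, plus strand: acggaccaTGTAAATAataatatt
MRP21, chrII:49404-49427, plus strand: tccgtcttTGTAAATAggtaatgc
MRPS12, chrXIV:694272-694295, minus strand: caacctttTGTAAATAgcaatgac
MRP49, chrXI:133681-133704, minus strand: tttgttcaTGTATATAtcaaaaaa
MRPL6, chrVIII:392538-392561, minus strand: gaatacctTGTAAATAtcctatga
MRP51, chrXVI:327700-327723, plus strand: cagagttcTGTAAATAaataaaga
MRP7, chrXIV:621246-621269, minus strand: agaatgccTGTAAATAttactatt

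The 53 members held 64 such sites, 2 in each of 11 members and 1 in each of 42. The fifth base of the core was A in 30 sites, T in 20, C in 13 and G in 1. A C stood 2 bases before the core in 42 of the 64 sites, a position at which Puf3 is known to favour C. The share of C there in other genes with the motif was not computed. The core began 8 to 165 bases after the stop codon, with a median of 55.5. MRP7 has the same core as 5 of the 6 members with the highest fold changes.

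In WT cells the members were transcripts of middling abundance. Levels are given here as deposited densities, that is, size-factor-normalised reads per nucleotide, which allow genes of different length to be compared. The median member had a WT density of 0.375, against 0.276 for the median protein-coding gene. Members ran from the 23.6th to the 86.7th percentile of protein-coding genes, with the middle 50% between densities of 0.302 and 0.552. The highest and the lowest member differed by 11.1-fold. The median was 0.371 for the large and 0.418 for the small subunit, and 0.383 for proteins with a bacterial counterpart and 0.354 for mitochondria-specific ones. Each member rested on 1824 to 14919 reads summed over the 12 libraries.

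MRPS12, which encodes the decoding-centre protein uS12, had the highest WT level at a density of 1.35 ± 0.140 (SD, n = 2). MRPL39 (YML009C), a small protein of the bL33 family, followed at 1.18 ± 0.0256 (SD, n = 2), and MRPS18, of the uS11 family, at 0.854 ± 0.0498 (SD, n = 2). These 3 are ordered without overlap between their WT libraries. At the other end stood MRP20 (YDR405W), of the uL23 family at the rim of the peptide exit tunnel, at 0.122 ± 0.00435 (SD, n = 2). MRPL4 (YLR439W), of the uL29 family at the same rim, had 0.156 ± 0.0435 (SD, n = 2), and MRPL24 (YMR193W), of the bL28 family, had 0.183 ± 0.0177 (SD, n = 2). The WT libraries of MRPL4 and MRPL24 overlapped, at densities of 0.125 and 0.187 for MRPL4 and 0.196 and 0.171 for MRPL24, so their order is not set beyond the spread. The lower MRPL4 library was level with the higher one of MRP20, at 0.125 each.

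**Figure D1:**
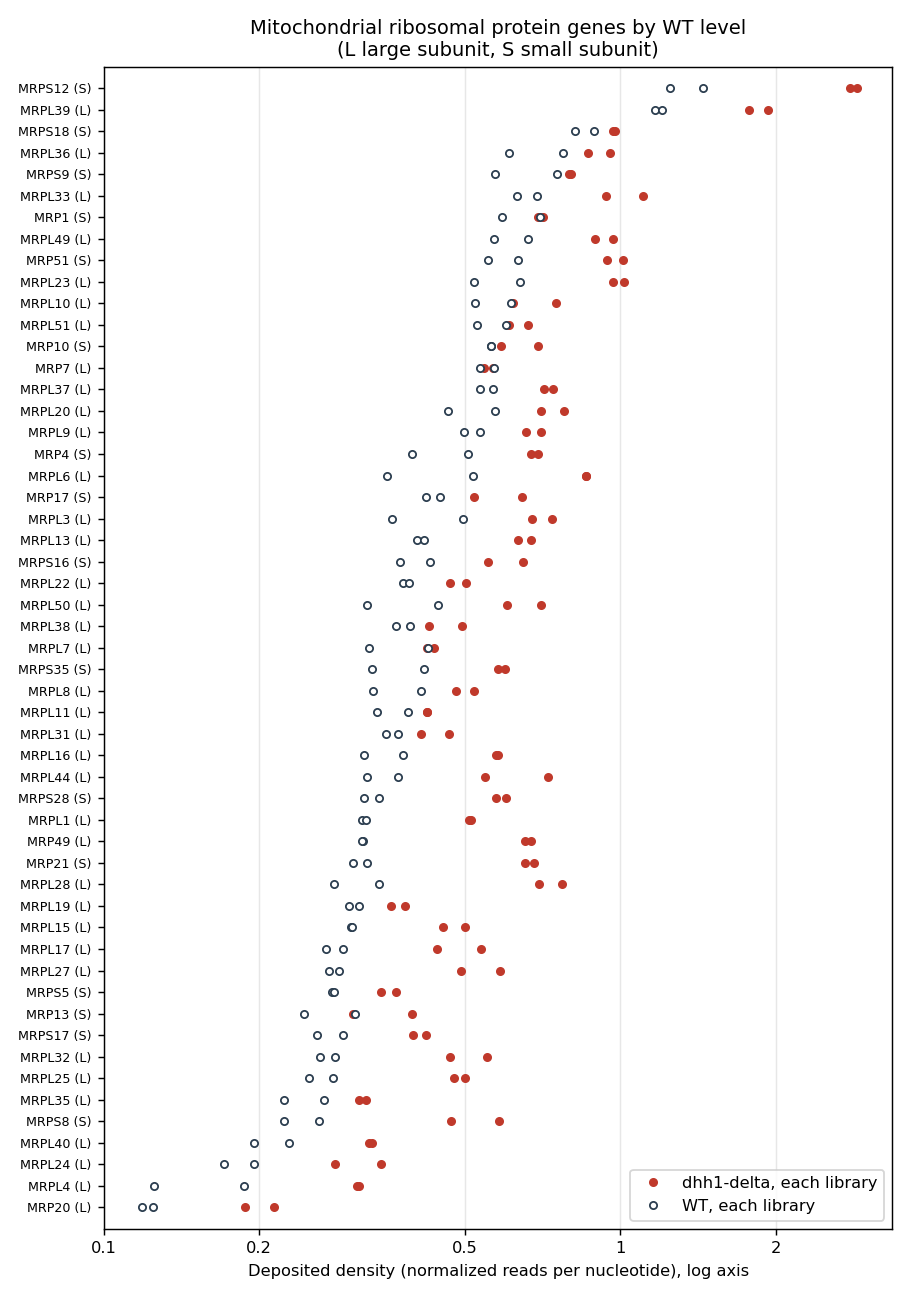
Deposited density (x axis, log scale, normalized reads per nucleotide) of each of the 53 members (y axis, ordered by WT mean) in the 2 dhh1Δ libraries (filled) and the 2 WT libraries (open). In 49 members both dhh1Δ points lie to the right of both WT points, at every level from MRP20 to MRPS12.

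The dhh1Δ cells were set against WT to ask how the loss of this decapping activator goes with the level of each message. Transcripts of the mitochondrial ribosomal proteins were higher in dhh1Δ as a group: 37 of the 53 rose and 0 fell at an adjusted p under 0.05 (limma-trend, Benjamini-Hochberg over all 9497 features tested). In the same comparison 20.9% of protein-coding genes rose and 21.7% fell. The members' median log2 fold change was 0.62, a 1.54-fold difference, against -0.04 for all protein-coding genes. Every member had a positive fold change, from 0.01 for MRP7 to 1.23 for MRPL28 on the log2 scale. Both dhh1Δ libraries lay above both WT libraries in 49 members, where 34.3% of protein-coding genes did so, and MRP1, MRP7, MRP13 and MRPL7 overlapped. With 2 libraries per strain an exact permutation test of 1 gene cannot go below p = 0.333 (two-sided), so calls rest on the spread that limma shares across genes and strains.

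MRPL28 (YDR462W) showed the largest fold change of the 53. It encodes mL40, a mitochondria-specific protein of the central protuberance, and lies at chrIV:1386073-1386516 on the plus strand. Its density was 0.696 and 0.771 in dhh1Δ, against 0.279 and 0.341 in WT. The groups did not overlap, and the log2 fold change was 1.23 ± 0.177 (SE, limma, adjusted p = 0.00031).

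Next came 3 proteins of the small subunit. MRPS8 (YMR158W), of the uS8 family that binds small-subunit RNA, lies at chrXIII:572248-572715 on the plus strand. Its density was 0.470 and 0.583 in dhh1Δ, against 0.223 and 0.261 in WT, a log2 fold change of 1.10 ± 0.130 (SE, limma, adjusted p = 7.83e-05). MRP21 (YBL090W), of the bS21 family, interacts genetically in yeast with the leaders of mitochondrial messages and lies at chrII:48825-49358 on the plus strand. MRP21 had densities of 0.679 and 0.653 in dhh1Δ, against 0.323 and 0.303 in WT, a log2 fold change of 1.08 ± 0.179 (SE, limma, adjusted p = 0.000814). MRPS12 (YNR036C), at chrXIV:694361-694822 on the minus strand, was the most abundant member in both strains. Its density was 2.87 and 2.78 in dhh1Δ, against 1.25 and 1.45 in WT, a log2 fold change of 1.07 ± 0.137 (SE, limma, adjusted p = 0.000143). In all 3 genes both dhh1Δ libraries lay above both WT libraries by more than the distance between replicates.

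MRP49 and MRPL6 of the large subunit completed the 6 highest. MRP49 (YKL167C), of the mitochondria-specific mL61 family, lies at chrXI:133721-134134 on the minus strand. Its density was 0.672 and 0.654 in dhh1Δ, against 0.317 and 0.316 in WT, a log2 fold change of 1.06 ± 0.117 (SE, limma, adjusted p = 4.97e-05). MRPL6 (YHR147C), of the uL6 family near the factor-binding site, lies at chrVIII:392639-393283 on the minus strand. Its density was 0.859 and 0.858 in dhh1Δ, against 0.353 and 0.519 in WT, a log2 fold change of 1.00 ± 0.148 (SE, limma, adjusted p = 0.000382). The WT libraries of MRPL6 differed from each other far more than the dhh1Δ libraries did, and still did not reach them. Of the 53 members, 5 were called at 2-fold or more, which are those named above except MRPL6.

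**Figure D2:**
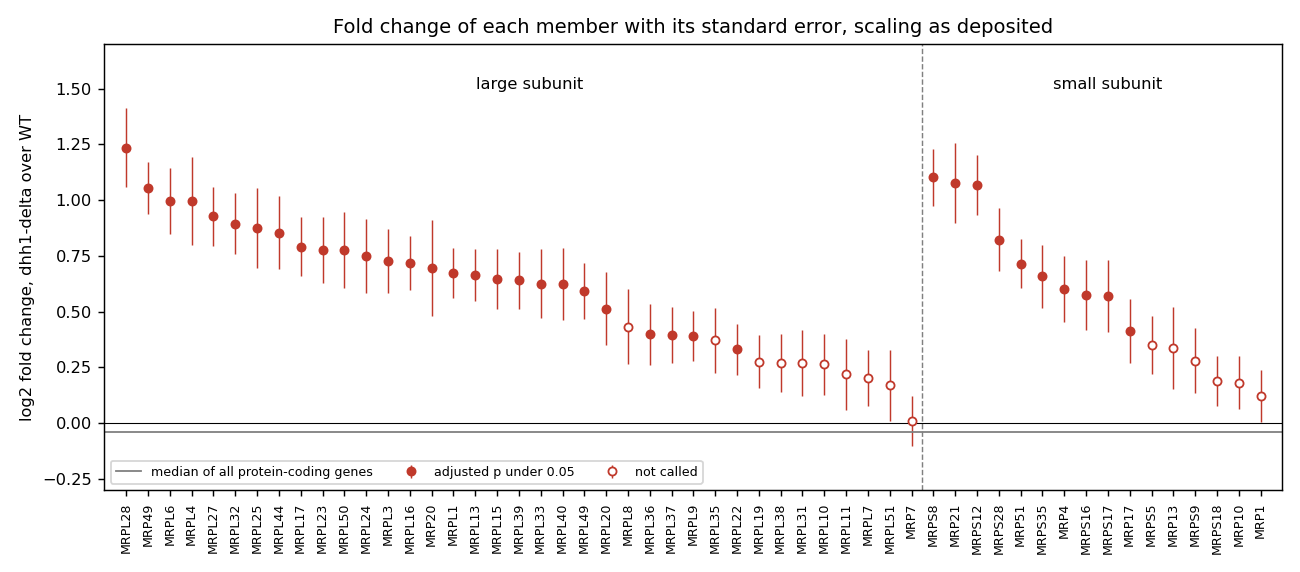
Log2 fold change of each member, dhh1Δ over WT (y axis), with its standard error as bars, for the large subunit (left) and the small subunit (right), ordered by size; filled points have an adjusted p under 0.05 and the grey line is the median of all protein-coding genes. All 53 points lie above 0, and 37 are filled.

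The increase was spread over both subunits and both classes of protein. In the large subunit 27 of 37 members rose, with a median log2 fold change of 0.64, and in the small subunit 10 of 16, with a median of 0.57. Among proteins with a bacterial counterpart 25 of 35 rose, with a median of 0.60, and among mitochondria-specific proteins 12 of 18, with a median of 0.65. Of all protein-coding genes 20.9% rose and 21.7% fell, with a median of -0.04. Whether the subunits or the classes of protein differ was not tested.

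Within the ribosome the members differed in size of change. The groups by place in the particle that follow were made after the values were seen and are a description. The 4 proteins grouped here at the rim of the peptide exit tunnel all rose, where 20.9% of protein-coding genes and 37 of the 53 members rose. MRPL4 had a log2 fold change of 1.00, MRP20 of 0.70, MRPL40 of 0.62 and MRPL22 of 0.33. Of these MRPL4 was called in all 4 fits that left out 1 library of dhh1Δ or WT, MRPL40 in 2, and MRP20 and MRPL22 in 0. Of 4 proteins along the path of the message, MRP21, MRPS12 and MRP51 rose, the last at 0.72 with densities of 0.942 and 1.01 in dhh1Δ, against 0.553 and 0.633 in WT. MRPS5, of the uS5 family at the entry of the message, was not called at 0.35 (limma, adjusted p = 0.0538). Of 6 proteins of the central protuberance, MRPL28, MRPL17 at 0.79 and MRPL36 at 0.40 rose, the last called in 1 of these 4 fits. MRPL35, MRPL7 and MRP7 of the same structure were not called, at 0.37, 0.20 and 0.01. Neither protein at the base of the stalk that recruits elongation factors was called, with 0.28 for MRPL19 and 0.22 for MRPL11.

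MRP7 (YNL005C), which encodes bL27, a protein close to the peptidyl transferase centre, lies at chrXIV:621313-622428 on the minus strand. It had densities of 0.545 and 0.566 in dhh1Δ, against 0.535 and 0.569 in WT. The libraries interleaved, and the log2 fold change was 0.01 ± 0.113 (SE, limma, adjusted p = 0.956). MRPS18 (YNL306W), among the 3 highest in WT, had densities of 0.969 and 0.978 in dhh1Δ, against 0.819 and 0.889 in WT. Its groups did not overlap, but the log2 fold change of 0.19 ± 0.112 (SE, limma, adjusted p = 0.20) did not pass the test. Across the 53 genes the fold change tended to be smaller where the WT level was higher, with a Spearman rho of -0.38, a description over genes that share the same 4 libraries and in which the WT level enters both measures. For annotated length rho was -0.15.

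The deposited scaling and a scaling fixed on protein-coding genes gave the same direction for all 53 members. When size factors were taken from 5610 protein-coding genes, 48 members rose and 0 fell, where 28.1% of protein-coding genes rose and 26.3% fell, and the members' median was 0.66. Both dhh1Δ libraries then lay above both WT libraries in 51 members, where 38.9% of protein-coding genes did so. The 5 not called then were MRP7, MRP10, MRP13, MRPL11 and MRPL51. Under spike-in factors only MRPL28 was called, at a log2 fold change of 1.01 (limma, adjusted p = 0.0448), where 3.87% of protein-coding genes were higher and 6.61% lower. With these factors 46 of 53 members were above 0, and MRPL7, MRPL11, MRPL51, MRP1, MRP7, MRP10 and MRPS18 were below. The members' median was 0.40, with the median of all protein-coding genes at -0.26. WT library 1 had a low spike-in share. A fit without it, chosen after seeing the data, had only the other WT library as reference. Spike-in factors then gave the members a median of 1.02, with the median of all protein-coding genes at 0.28. Whether the low share plays a part was not tested.

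Further members with called changes belong to both classes of protein. MRPL27, of the mitochondria-specific mL41 family, had densities of 0.492 and 0.584 in dhh1Δ, against 0.286 and 0.273 in WT, a log2 fold change of 0.93. MRPL32, of the bL32 family, whose product is cut to its mature form by the m-AAA protease of the inner membrane before it joins the ribosome, had 0.468 and 0.552 in dhh1Δ, against 0.280 and 0.262 in WT, a log2 fold change of 0.90. MRPS28, of the uS15 family, had 0.574 and 0.602 in dhh1Δ, against 0.341 and 0.319 in WT, a log2 fold change of 0.82. In these 3 genes the dhh1Δ libraries lay clear of WT, and the WT libraries stood close together.

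MRPL25 and MRPL44, of the mitochondria-specific mL59 and mL53 families, had log2 fold changes of 0.88 and 0.85. MRPL44 showed a wide dhh1Δ pair, at 0.546 and 0.725 in dhh1Δ, against 0.371 and 0.323 in WT, without overlap. MRPL3, of the mL44 family, which has an RNase III-like fold, had 0.736 and 0.673 in dhh1Δ, against 0.361 and 0.496 in WT, a log2 fold change of 0.73. MRPL16, of the uL16 family near the tRNA acceptor site, had 0.573 and 0.579 in dhh1Δ, against 0.380 and 0.319 in WT, a log2 fold change of 0.72. MRPL1, of the uL1 family in the stalk where used tRNA leaves, had 0.513 and 0.509 in dhh1Δ, against 0.316 and 0.321 in WT, a log2 fold change of 0.67. MRPL9, of the uL3 family that reaches toward the peptidyl transferase centre, had 0.657 and 0.702 in dhh1Δ, against 0.534 and 0.499 in WT, a log2 fold change of 0.39. All 6 were called, and in each the pairs of libraries did not overlap. MRPL39, next to MRPS12 in WT, had 1.77 and 1.93 in dhh1Δ, against 1.17 and 1.20 in WT, a log2 fold change of 0.64. It stood next to MRPS12 in dhh1Δ too.

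Of the 37 calls as deposited, 13 were lost when at least 1 of the 4 libraries was left out. These were MRP4, MRP17, MRP20, MRPL9, MRPL20, MRPL22, MRPL24, MRPL33, MRPL36, MRPL37, MRPL40, MRPS16 and MRPS17. The fewest calls, 24, came without dhh1Δ library 2.

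In every library the members' summed reads could be read as a share of all protein-coding reads, which needs no size factor. They took 0.259% and 0.275% in dhh1Δ, against 0.168% to 0.191% in the other 10 libraries, where WT had 0.182% and 0.168%. Both dhh1Δ libraries stood above all the other 10. The median member, scaled on protein-coding genes, had densities of 0.646 and 0.686 in dhh1Δ, against 0.390 to 0.467 in the 8 libraries of the other deletions and 0.424 and 0.403 in WT. Fewer or more transcripts per cell and a changed total of RNA per cell cannot be told apart from these shares.

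The dhh1Δ libraries were also set against the 8 libraries of the other 4 deletions, all of which carry the same kanMX4 marker. Here 30 members were higher in dhh1Δ and 0 lower, where 16.8% of protein-coding genes were higher and 44.1% lower. The members' median log2 fold change was 0.37, against -0.23 for all protein-coding genes. The protein-coding size factors, by which the deposited densities are divided, were 0.887 and 0.905 in dhh1Δ, against 1.21 and 1.27 in the libraries labelled ski2Δ, 1.08 and 1.26 in those labelled dbp1Δ, 1.03 and 0.943 in ecm32Δ, and 0.840 and 0.863 in slh1Δ. With protein-coding factors the median of all protein-coding genes was -0.01, 47 members were higher and 0 lower, and the members' median was 0.60, where 31.3% of protein-coding genes were higher and 31.1% lower. Both dhh1Δ libraries lay above all 8 in 24 members as deposited, where 12.8% of protein-coding genes did so, and in 48 with protein-coding factors, where 30.4% did so.

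The highest fold change was again that of MRPL28, which had 0.696 and 0.771 in dhh1Δ, against 0.251 to 0.432 with a median of 0.319 in the other deletions, a log2 fold change of 1.12 ± 0.140 (SE, limma, adjusted p = 5.74e-05). MRP21 had 0.679 and 0.653 in dhh1Δ, against 0.306 to 0.486 with a median of 0.370, and MRPL4 had 0.308 and 0.311 in dhh1Δ, against 0.138 to 0.249 with a median of 0.152. Their log2 fold changes were 0.84 and 0.81. MRPS12 had 2.87 and 2.78 in dhh1Δ, against 1.27 to 2.31 with a median of 1.55 in the other deletions, a log2 fold change of 0.81. MRPL6 followed with 0.78 and MRP49 with 0.72. None of these 6 overlapped with any library of the other deletions. MRP7 was the lowest, with 0.545 and 0.566 in dhh1Δ, against 0.515 to 0.781 with a median of 0.640 in the other deletions. Its log2 fold change of -0.21 was not called (limma, adjusted p = 0.066), and it was 0.02 with protein-coding factors. This comparison and the one with WT share the dhh1Δ libraries. Without dhh1Δ library 2, 18 members were called, and without library 1 of the strain labelled dbp1Δ 29 were higher and 1, MRP7, was lower, at -0.24 (limma, adjusted p = 0.0189).

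Deletions of ECM32 and SLH1 gave no called member. In ecm32Δ the members' median log2 fold change over WT was 0.15, against 0.10 for all protein-coding genes, with 0 called by limma-trend, 0 by voom and 1 at an unadjusted p under 0.05, a level that 9.63% of protein-coding genes passed. By adjusted p 0.0355% of protein-coding genes were higher and 0.0178% lower. The smallest p belonged to MRPL22, of the uL22 family that lines the exit tunnel, which averaged a density of 0.468 in ecm32Δ and 0.384 in WT, a log2 fold change of 0.28 ± 0.115 (SE, limma, adjusted p = 0.544). MRPL16, of the uL16 family, had a log2 fold change of 0.26 and MRPL23, of the uL13 family, of 0.32, neither of them called. Both ecm32Δ libraries lay above both WT libraries in 29 of the 53 members, a larger share than the 29.4% of protein-coding genes that did so. With protein-coding factors 0 members were called, where 0.0533% of protein-coding genes were called higher and 0.107% lower. At an unadjusted p under 0.05 stood 2 members, both higher, and 13.4% of protein-coding genes.

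In slh1Δ the members' median log2 fold change over WT was -0.01, against -0.10 for all protein-coding genes. With 0% of protein-coding genes higher and 0.0178% lower, 0 members were called by limma-trend, 0 by voom and 0 at an unadjusted p under 0.05, which 7.23% of protein-coding genes passed. The smallest p belonged to MRP17, of the bS6 family, which averaged 0.364 in slh1Δ and 0.434 in WT, a log2 fold change of -0.26 ± 0.144 (SE, limma, adjusted p = 0.742). MRPL38, of the uL14 family, had -0.21 and MRPL15, of the mL57 family, -0.21, neither of them called. Both slh1Δ libraries lay above both WT libraries in 5 members and below in 5, where 6.02% and 32.3% of protein-coding genes did so. With protein-coding factors 0 members were called, where 0.0355% of protein-coding genes were called higher and 0.0355% lower. At an unadjusted p under 0.05, 7 members were higher and 0 lower, a share of 13.2%, where 5.65% of protein-coding genes were higher and 4.48% lower. The members' log2 fold changes as deposited ran from -0.26 to 0.25 in slh1Δ and from -0.05 to 0.32 in ecm32Δ.

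In the libraries labelled ski2Δ 28 members were higher than in WT and 0 lower as deposited, but 60.0% of all protein-coding genes were higher too. The members' median log2 fold change was 0.41 and that of all protein-coding genes 0.43. Both libraries lay above both WT libraries in 51 members, where 86.1% of protein-coding genes did so. With protein-coding factors 0 members were higher and 1, MRP51, was lower, where 0.391% of protein-coding genes were called higher and 0.196% lower. At an unadjusted p under 0.05, 3 members were higher and 3 lower, a share of 11.3%, and 11.4% of protein-coding genes passed that level. The 6 members with the highest called fold changes as deposited were MRPS8 at 0.68, MRP4 at 0.66, MRPS12 at 0.63, MRPL4 at 0.63, MRPL17 at 0.63 and MRP49 at 0.58. None of them was called with protein-coding factors, at 0.16 to 0.25, or with spike-in factors, where they were negative. Without WT library 1, or without library 2 of the strain, 0 members were called as deposited.

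MRP51 (YPL118W) encodes the small-subunit protein bS1m, which in yeast is needed for the translation of mitochondrial messages and acts with their leader sequences. It lies at chrXVI:326628-327662 on the plus strand, and 363 bases separate it from DBP1, which had 6 reads in all in the libraries labelled ski2Δ, against 226 in those of WT. As deposited, MRP51 had densities of 0.574 and 0.652 in the libraries labelled ski2Δ, against 0.553 and 0.633 in WT, and the groups overlapped. Scaled on protein-coding genes it had 0.475 and 0.513 in the libraries labelled ski2Δ, against 0.638 and 0.652 in WT. Both were below every other library of the study, which ran from 0.638 upward. The log2 fold change on that scale was -0.38 ± 0.0682 (SE, limma, adjusted p = 0.0346). It stayed between -0.33 and -0.44 when each library was left out in turn, with adjusted p-values of 0.06 to 0.152, none of them called, and was -0.71 with spike-in factors (limma, adjusted p = 0.649), where the median of all protein-coding genes was -0.32. Without WT library 1 spike-in factors gave -0.18, with the median of all protein-coding genes at 0.22. Whether the marker at the neighbouring locus plays a part was not tested.

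**Figure D3:**
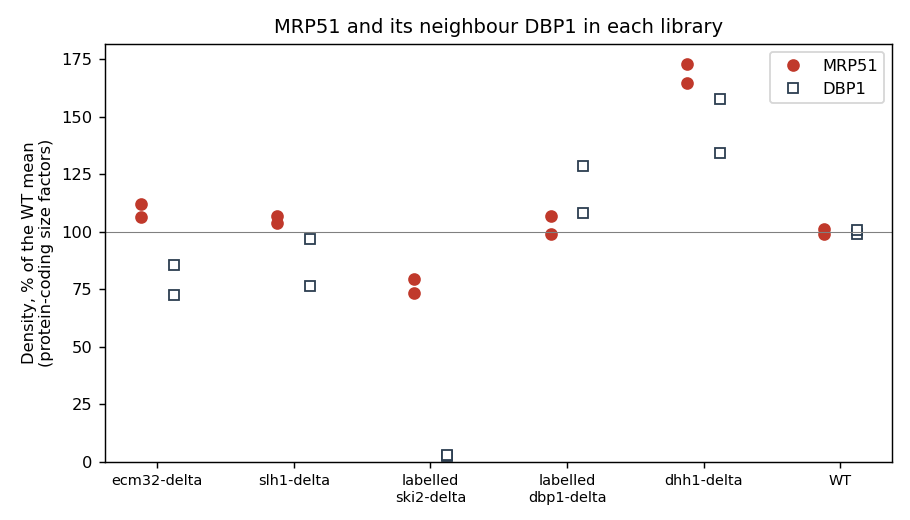
Density of MRP51 (filled circles) and of its neighbour DBP1 (open squares) in each library as a percentage of the WT mean (y axis), scaled with protein-coding size factors, by strain (x axis). In the libraries labelled ski2Δ MRP51 stands at 73.5% and 79.5% of the WT mean and DBP1 near 0; in dhh1Δ MRP51 stands at 165% and 173%.

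In the libraries labelled dbp1Δ 13 members were higher than in WT and 0 lower as deposited, where 24.8% of protein-coding genes were higher and 0.160% lower. The members' median log2 fold change was 0.36 and that of all protein-coding genes 0.35. Both libraries lay above both WT libraries in 49 members, where 75.1% of protein-coding genes did so. MRPS8 had the highest, at densities of 0.389 and 0.408 in the libraries labelled dbp1Δ, against 0.223 and 0.261 in WT, a log2 fold change of 0.71 ± 0.130 (SE, limma, adjusted p = 0.0172). It was followed by MRP49 at 0.62, MRPS16 at 0.59, MRPL22 at 0.58, MRPL17 at 0.56 and MRP10, of the mS37 family, at 0.53. MRP51 was at 0.39 as deposited and at 0.04 with protein-coding factors, under which 0 members were called, where 0.338% of protein-coding genes were called higher and 0.302% lower. At an unadjusted p under 0.05, 4 members were higher, a share of 7.55%, where 7.31% of protein-coding genes were. The members' median log2 fold change was 0.48 without library 1 of the strain, 0.22 without its library 2 and 0.34 without WT library 1. Without WT library 1 the median of all protein-coding genes was 0.27. The calls as deposited did not hold without library 2 of the strain or without WT library 1.

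**Figure D4:**
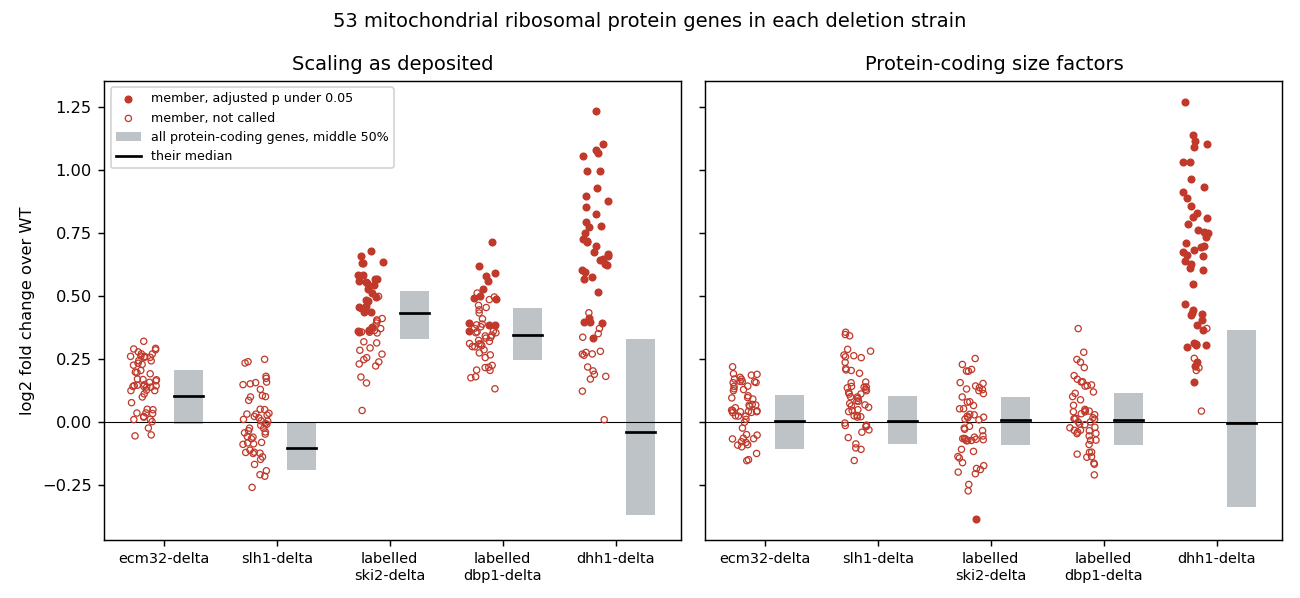
Log2 fold change over WT (y axis) of the 53 members in each deletion strain (x axis), with the deposited scaling (left) and with protein-coding size factors (right); filled points have an adjusted p under 0.05, and the grey bar and black line give the middle 50% and the median of all protein-coding genes. The members' points lie around the median of all protein-coding genes in the libraries labelled ski2Δ and dbp1Δ, and in dhh1Δ above it, at a median of 0.62 as deposited and 0.66 with protein-coding factors.

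Other genes of mitochondrial translation were read in dhh1Δ against WT to place the members. The 24 remaining proteins of the mitochondrial ribosome, named RSM, IMG and otherwise, had 14 higher and 1 lower, with a median log2 fold change of 0.55. Of all protein-coding genes 20.9% were higher and 21.7% lower. RTC6, which encodes a bL36 protein, had densities of 1.86 and 1.78 in dhh1Δ, against 0.680 and 0.730 in WT, a log2 fold change of 1.36 ± 0.146 (SE, limma, adjusted p = 3.99e-05). FYV4 rose by 1.05 and RSM18, of the bS18 family, by 1.04 on the log2 scale. RSM22, a methyltransferase-like protein of the small subunit, was the 1 that fell, to densities of 0.119 and 0.120 in dhh1Δ, against 0.165 and 0.158 in WT, a log2 fold change of -0.42 ± 0.142 (SE, limma, adjusted p = 0.0348). The call of RSM22 did not hold without WT library 1. Under spike-in factors 1 of the 24 rose, where 3.87% of protein-coding genes were higher and 6.61% lower. RSM22 was also the 1 of the 24 without a TGTANATA match after the stop codon.

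Factors that work on the mitochondrial ribosome were read as lists in the same comparison, where 20.9% of all protein-coding genes rose and 21.7% fell. Of 10 translation factors 3 rose and 0 fell: RRF1, the recycling factor, at 0.65, TUF1, the elongation factor that delivers tRNA, at 0.57, and MEF1, the translocase, at 0.39. Of 13 mitochondrial tRNA synthetase genes 0 rose and 1 fell, MSR1 for arginine at -0.58, and all 13 have the motif. Of 15 translational activators, which serve single mitochondrial messages, 3 rose and 3 fell, near the shares of all protein-coding genes. CBP3, CBP6 and CBS2, all of which act on cytochrome b, had 0.97, 0.70 and 0.50, and PET309, which acts on the COX1 message, CBP1, which stabilises that of cytochrome b, and AEP1, which acts on that of an ATP synthase subunit, had -0.67, -0.51 and -0.37. Of 12 assembly and membrane-anchoring genes MBA1, the membrane receptor of the mitochondrial ribosome, rose at 0.83, and GEP3, a GTPase needed for small-subunit RNA processing, fell at -0.68. Of 5 genes for mitochondrial DNA and transcription ABF2, which packages mitochondrial DNA, rose at 0.97 without a motif match. Of the 8 proteins encoded in mitochondrial DNA 0 were called as deposited by limma-trend, and 1 with protein-coding factors. The mitochondrial ribosomal protein among them, VAR1, had densities of 0.0753 and 0.0473 in dhh1Δ, against 0.0744 and 0.0692 in WT.

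Of the 138 genes taken by symbol as cytosolic ribosomal protein genes, 6 rose and 22 fell, with a median log2 fold change of -0.16. Of all protein-coding genes 20.9% rose and 21.7% fell. Scaled on protein-coding genes, 14 of the 138 rose and 41 fell, with a median of -0.12, and under spike-in factors their median was -0.38. Across the 6 lists from translation factors to mitochondrially encoded proteins, spike-in factors gave 1 called gene by limma-trend, a translational activator that was lower.

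**Figure D5:**
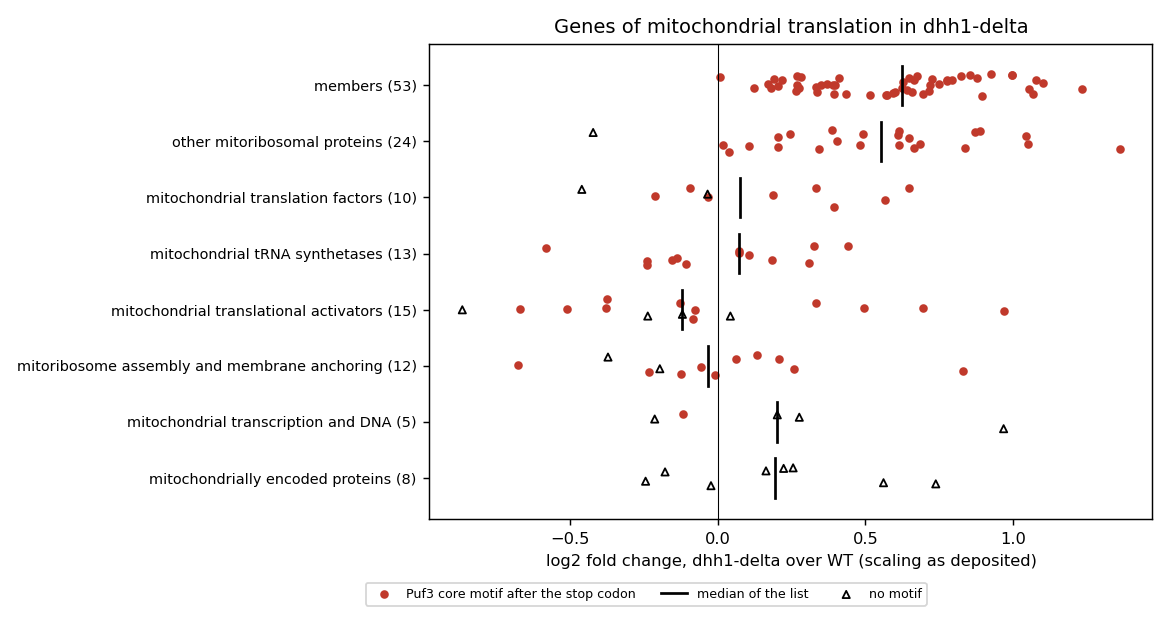
Log2 fold change, dhh1Δ over WT (x axis, deposited scaling), of the members and of 7 lists of related genes (rows, with the number of genes). Filled circles have the TGTANATA motif within 200 bases after the stop codon, and the black line is the list's median. Triangles have no match, except in the list of mitochondrially encoded proteins, whose genes are drawn as triangles but were not searched for the motif. Members and the other ribosomal proteins centre at 0.62 and 0.55, while the remaining lists centre between -0.12 and 0.20.

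The motif after the stop codon was set beside the fold changes in dhh1Δ over WT. Of 776 other protein-coding genes with the motif, 190 rose, a share of 24.5%, with a median log2 fold change of 0.04. Of 4802 without it, 949 rose, a share of 19.8%, with a median of -0.06. The median of the 53 members, 0.62, lay above that of other genes with the same letters. Members with 1 site rose in 29 of 42 cases, with a median of 0.63, and those with 2 sites in 8 of 11, with a median of 0.59. PUF3 itself, looked up after the other values were seen, had densities of 0.411 and 0.404 in dhh1Δ, against 0.244 and 0.290 in WT, a log2 fold change of 0.61 ± 0.155 (SE, limma, adjusted p = 0.00985). In the other deletions PUF3 ran from 0.251 to 0.482. It was called higher than WT in the libraries labelled ski2Δ as well, at 0.68 (limma, adjusted p = 0.0118), and in those labelled dbp1Δ, at 0.60 (limma, adjusted p = 0.0315), but not with protein-coding factors. In dhh1Δ over the other deletions it was 0.29 (limma, adjusted p = 0.0606) as deposited and 0.52 (limma, adjusted p = 0.000246) with protein-coding factors.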

How the data were processed

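Strand-specific total RNA-seq of 6 yeast strains, 2 libraries each, was analysed from 1 deposited table. Reads were trimmed with Trim Galore, aligned with HISAT2 2.2.0 to build R64, counted with featureCounts 2.0.0 and scaled with DESeq2, per the submitters' processing notes. The deposited signal is a density: reads per nucleotide, normalised per library. All 124137 values above 0 could be written as whole reads times a library factor over 1 length per feature, within 0.001 read. That length was the smallest that gave whole reads, so a match is easily found for features with few values above 0. It was at least the annotated length in 5855 of 5919 annotated features. Limma-trend (limma 3.58.1, R 4.3.3) was fitted to log2(density + 0.005076), the pseudocount being the 10th percentile of values above 0, so fold changes of low genes are understated. It was fitted to all 12 libraries, over the 9497 features whose mean exceeded the pseudocount, without spike-ins, with 6 residual degrees of freedom. A call is a Benjamini-Hochberg adjusted p under 0.05. The fit was tested on simulated data. Size factors from protein-coding genes or spike-ins, voom on the recovered reads, and leaving out libraries were alternatives. On those reads voom called 2695 protein-coding genes in dhh1Δ over WT, and limma-trend 2400. Members named are, per comparison, up to 6 called per direction whose groups do not overlap, else the 3 smallest p-values, the 3 highest and lowest WT levels, and MRP51. Outside this rule, further members are named in dhh1Δ over WT. From the other lists they are up to 3 called genes per direction. Members and lists were proposed with earlier results of these data known; no threshold on values was applied to the members. No label ties replicates to separate cultures beyond calling them biological replicates. No member sequence had another match in the genome (blastn). MRPL19, MRPL51 and MRP4 overlap other annotated frames.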

Additional observations from a re-analysis of the deposited data

How the results depend on the processing

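The calls in the libraries labelled ski2Δ and dbp1Δ changed with the size factors and with the libraries kept. In dhh1Δ the members' median stayed above 0. With protein-coding factors the called members and their median log2 fold change were 1 and -0.017 in the libraries labelled ski2Δ, 0 and 0.013 in those labelled dbp1Δ, and 47 and 0.60 in dhh1Δ over the other deletions. MRP51 in the libraries labelled ski2Δ was 0.05 as deposited and -0.38 with these factors. With spike-in factors no member was called in the libraries labelled ski2Δ or dbp1Δ (0 each), 1 in dhh1Δ over WT and 16 in dhh1Δ over the other deletions. Of protein-coding genes 3.87% were higher and 6.61% lower in dhh1Δ over WT, and 9.45% and 4.18% over the other deletions. The members' medians were -0.11 in ecm32Δ, -0.36 in slh1Δ, -0.35 in the libraries labelled ski2Δ, -0.18 in those labelled dbp1Δ, 0.40 in dhh1Δ over WT and 0.63 over the other deletions. Those of all protein-coding genes were -0.15, -0.45, -0.32, -0.19, -0.26 and 0.02 in the same order. Under spike-in factors all 28 members called higher as deposited in the libraries labelled ski2Δ turned negative, at -0.40 to -0.076, and 8 of the 13 in those labelled dbp1Δ, the 13 lying at -0.18 to 0.17. Among the named ones were, in the libraries labelled ski2Δ, MRP4 (-0.10), MRP49 (-0.17), MRPL17 (-0.13), MRPL4 (-0.11), MRPS12 (-0.13) and MRPS8 (-0.076), and in those labelled dbp1Δ MRP10 (-0.015) and MRP51 (-0.16). Spike-in factors without WT library 1, chosen after seeing the data, gave medians of 0.50 in ecm32Δ, 0.26 in slh1Δ, 0.27 in the libraries labelled ski2Δ, 0.42 in those labelled dbp1Δ and 1.02 in dhh1Δ, where the medians of all protein-coding genes were 0.39, 0.09, 0.22, 0.35 and 0.28 in the same order, with 0 called in those labelled ski2Δ or dbp1Δ. Fitting only the strains compared left 0 called in the libraries labelled ski2Δ and 1 in those labelled dbp1Δ. The cause of these changes was not tested.

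Leaving out 1 library at a time gave 24 to 31 called members in dhh1Δ over WT, 18 to 32 over the other deletions (1 of them lower, MRP7, without library 1 of the strain labelled dbp1Δ), 0 to 29 in the libraries labelled ski2Δ and 0 to 30 in those labelled dbp1Δ, whose median ran from 0.22 to 0.48. With protein-coding factors as well, added after seeing the data, dhh1Δ over WT kept 40 to 43 called and the libraries labelled ski2Δ 0. In dhh1Δ over WT 24 members were called in all 4 fits as deposited, and 37 with protein-coding factors. Other pseudocounts and no filter moved no count by over 1.5 times.

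Replicate numbers are not stated to pair libraries, and same-numbered libraries did not deviate together, with correlations of -0.19 to 0.20 over 15 pairs of strains. A replicate block gave 39 called members in dhh1Δ over WT, 30 over the other deletions, 31 in the libraries labelled ski2Δ, 14 in those labelled dbp1Δ and 0 in ecm32Δ and slh1Δ. The share of protein-coding genes called with the block is not given here. Without the block, 60.0% of them were higher in the libraries labelled ski2Δ and 24.8% in those labelled dbp1Δ. In dhh1Δ 20.9% were higher over WT and 16.8% over the other deletions.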
